A study of Mus musculus with 12 samples.

Results

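The Cyp2c subfamily described here comprises 7 mouse liver genes, Cyp2c29, Cyp2c37, Cyp2c38, Cyp2c50, Cyp2c54, Cyp2c55 and Cyp2c70. They were taken by annotation, as the probe sets that carry exactly 1 gene symbol among these 7 names. Each gene had 1 such probe set, so 7 of the 22626 probe sets tested, or 7 of 12393 named genes, make up the subfamily here. Total RNA of whole liver was hybridised to 12 Affymetrix 430A arrays in 4 groups of 3. All mice were male, labelled C57BL/6 and aged 6 to 8 weeks, and all had first eaten a soya-free powdered RM3 diet for 14 days. The groups were POR-null mice on that diet with quercetin, POR-null mice on the control diet, wild-type mice on the diet with quercetin and wild-type mice on the control diet. Quercetin, a plant flavonol, was mixed in at 6.2 g per kg (also given as 7 mg per mouse), and tissue was taken after 24 h. POR-null mice lack cytochrome P450 reductase, and the sources used here name neither the allele nor the tissues in which it is lost. Each array carried RNA pooled from 3 mice, so the spread between arrays is one between pools.

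Cytochromes P450 of the CYP2C group are haem enzymes of the endoplasmic reticulum that oxidise drugs, steroids and long-chain fatty acids, and hepatocytes are a main site of their expression. They receive their electrons from P450 reductase, the protein that POR-null mice lack. In mice Cyp2c29, Cyp2c37, Cyp2c38, Cyp2c50, Cyp2c54 and Cyp2c55 act on arachidonic or linoleic acid, and Cyp2c70 hydroxylates bile acids to give the muricholic acids of rodents. Cyp2c29, Cyp2c37 and Cyp2c55 are known targets of CAR (gene Nr1i3) and PXR (gene Nr1i2), nuclear receptors that induce drug metabolism.

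The Cyp2c genes lie together on mouse chromosome 19, where the RefSeq gene table (GRCm38.p6) lists 15 protein-coding genes and 4 pseudogenes of the subfamily. In their order there, Cyp2c55 is the first coding gene, Cyp2c29 the fourth, Cyp2c38 the sixth, and Cyp2c37, Cyp2c54, Cyp2c50 and Cyp2c70 are 4 coding neighbours in that order. The promoter table of RefSeq held 6 of the 7 members, all but Cyp2c54. Shown here are the 250 bases before the start of Cyp2c55, the member with the largest genotype difference, of the near neighbours Cyp2c37 and Cyp2c50, which both rose with genotype, and of Cyp2c70, whose difference had the opposite sign. Capitals mark CAAAGTC, a core shared by many sites of the liver factor HNF4A, searched on both strands.
Cyp2c55: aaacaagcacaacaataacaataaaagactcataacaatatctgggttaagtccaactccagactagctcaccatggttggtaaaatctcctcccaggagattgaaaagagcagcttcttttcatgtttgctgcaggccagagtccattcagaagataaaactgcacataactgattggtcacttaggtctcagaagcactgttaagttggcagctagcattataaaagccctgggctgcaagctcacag
Cyp2c37: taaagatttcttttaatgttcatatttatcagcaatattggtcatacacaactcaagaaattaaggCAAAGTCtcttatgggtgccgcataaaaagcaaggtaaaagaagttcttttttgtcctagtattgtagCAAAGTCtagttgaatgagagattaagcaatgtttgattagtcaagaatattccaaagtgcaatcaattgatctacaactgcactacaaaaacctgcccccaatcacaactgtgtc
Cyp2c50: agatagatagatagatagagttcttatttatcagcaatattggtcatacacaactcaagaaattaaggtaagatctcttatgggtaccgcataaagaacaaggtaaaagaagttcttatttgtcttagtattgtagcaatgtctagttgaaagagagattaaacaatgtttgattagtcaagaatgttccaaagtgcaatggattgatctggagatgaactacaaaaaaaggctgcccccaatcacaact
Cyp2c70: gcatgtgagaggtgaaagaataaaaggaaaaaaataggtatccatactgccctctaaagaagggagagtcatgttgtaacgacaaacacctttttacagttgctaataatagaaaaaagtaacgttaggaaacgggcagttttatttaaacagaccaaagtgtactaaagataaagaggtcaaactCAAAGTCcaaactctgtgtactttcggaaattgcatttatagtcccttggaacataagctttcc
In GRCm38.p6 these windows are chr19:39006769-39007018, chr19:39992174-39992423 and chr19:40089429-40089678 on the plus strand and chr19:40187287-40187536 on the minus strand.

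The windows of Cyp2c37 and Cyp2c50 were the most alike of the 15 pairs, with 215 identical positions in an alignment of 255 (84.3%), followed by Cyp2c29 with Cyp2c38 at 68.8%. CAAAGTC occurred at -184 and -116 of Cyp2c37, at -109 of Cyp2c29 and at -64 of Cyp2c70, counted back from the start, and not in the windows of Cyp2c50, Cyp2c38 or Cyp2c55. On either strand 3.84% of 32851 promoter windows of this length hold it. TATAAA, the TATA box core, began at -29 in Cyp2c55, at -19 in Cyp2c29 and at -31 in Cyp2c38, and 12.4% of all windows hold it on either strand; Cyp2c70 has it at -29 on the opposite strand. AGGTCA, a half-site of nuclear receptors, began at -154 in Cyp2c29 and at -74 in Cyp2c70 and is in 14.0% of all windows on either strand. CCAAT was searched as well and is in 33.8% of all windows on either strand. It stood at -17 in Cyp2c37 and at -12 in Cyp2c50. On the opposite strand it stood at -214 in Cyp2c37, at -212 in Cyp2c50 and at -76 in Cyp2c55. These matches are descriptions of the sequence alone, and the motifs were chosen after the sequences had been read.

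Values are log2 expression per probe set as deposited, so a difference of 1 is a doubling. Probe sets for 1 Cyp2c gene can also detect its close relatives, and levels of different probe sets are not compared. Arrays of 1 group correlated at r = 0.988 to 0.993 over all probe sets. The level of the disrupted gene was not used here to check the genotype labels, for it was not analysed. All 12 hepatocyte markers measured lay above 5.96, the median of all values, in their mean over the arrays. Their summed level, given as the mean of their log2 values, ranged from 12.08 to 12.21 in POR-null quercetin, 12.13 to 12.23 in POR-null control and 12.12 to 12.25 in wild-type control, and was 12.29 in each wild-type quercetin array. Of 6 cholangiocyte markers 6 lay below that median. Exocrine pancreas markers were uneven between arrays, with list means of -0.61, 0.05 and 2.25 around their average in arrays 1, 2 and 3 of POR-null quercetin.

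Cyp2c levels differed past the threshold by genotype and not by diet. Averaged over both diets, Cyp2c55, Cyp2c54, Cyp2c37 and Cyp2c50 rose in POR-null liver by 3.45-fold, 1.82-fold, 1.67-fold and 1.65-fold. Cyp2c29 and Cyp2c38 had higher means in POR-null liver and did not pass, and Cyp2c70 had a lower mean and did not pass. In all, 4 of 7 members rose and 0 fell by limma at an adjusted p of 0.05, where 7.58% of all probe sets were called in either direction, 4.88% as higher and 2.70% as lower. The median log2 difference of the 7 members was 0.72, against -0.02 over all 12393 genes.

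**Figure D1:**
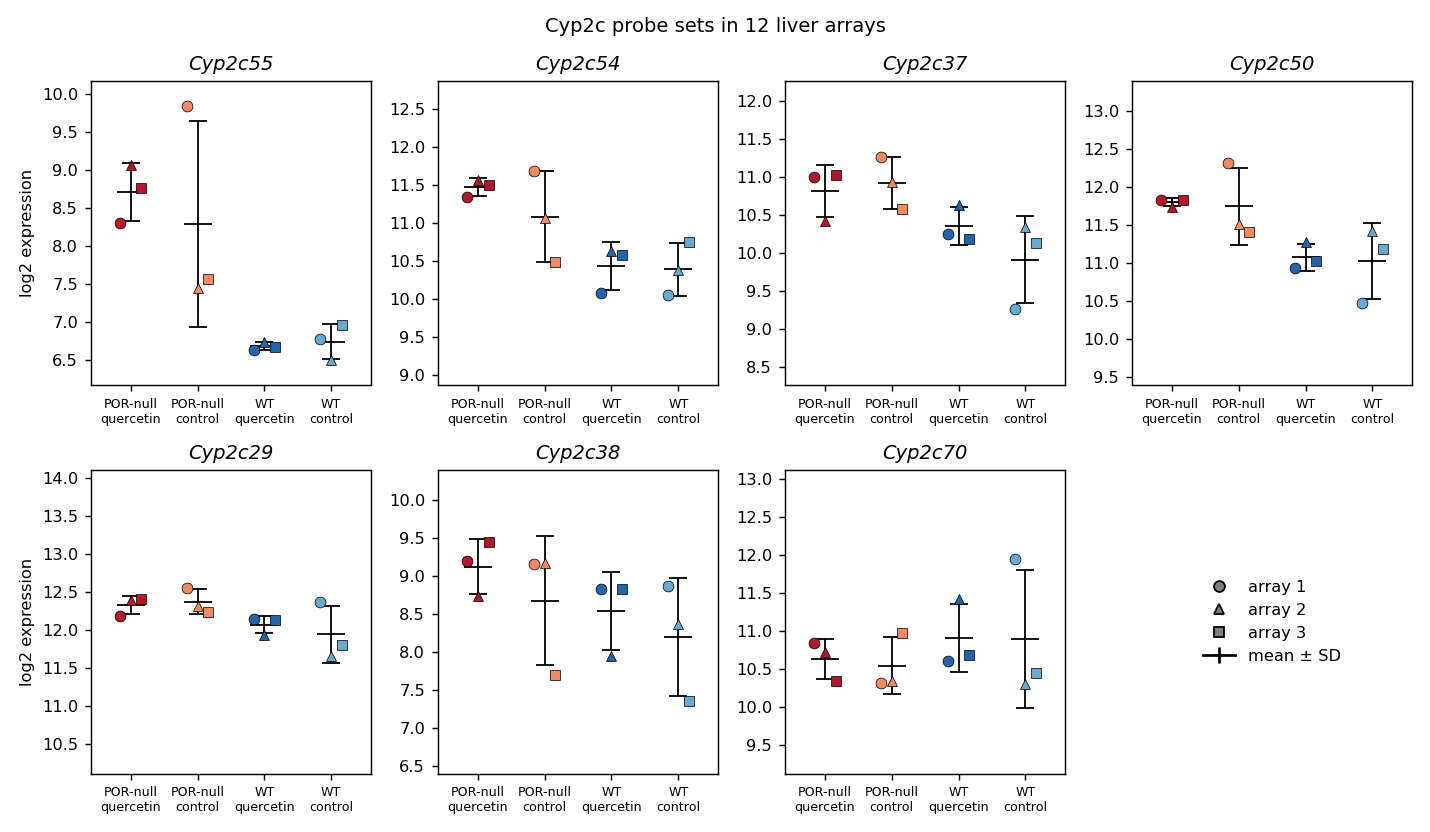
Log2 expression of the 7 Cyp2c probe sets (vertical axes, each spanning 4 log2 units) in the 4 groups (horizontal axes), with 1 point per array and the mean ± SD of 3 arrays as bars. All 6 POR-null arrays of Cyp2c55 lie above all 6 wild-type arrays, and wild-type control array 1 is the lowest of 12 for Cyp2c37, Cyp2c50 and Cyp2c54 and the highest for Cyp2c70.

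Cyp2c55, which in mice oxidises arachidonic acid near the end of its chain, differed most. Its log2 levels were 8.30, 9.07 and 8.77 in POR-null quercetin and 9.85, 7.46 and 7.57 in POR-null control, against 6.64, 6.75 and 6.67 in wild-type quercetin and 6.78, 6.50 and 6.96 in wild-type control. The lowest POR-null array thus lay above the highest wild-type array. Such a separation of 6 arrays from 6 was found in 1 of 7 members as higher in POR-null and in 0 as lower, against 1.92% and 1.22% of all probe sets. The averaged difference was 1.79 ± 0.31 (SE, 6 arrays against 6; 3.45-fold, 95% confidence interval 2.18 to 5.46; adjusted p = 0.00327). On the quercetin diet the difference was 2.03 ± 0.44 (4.08-fold, adjusted p = 0.0262). On the control diet it was 1.55 ± 0.44 and did not pass (adjusted p = 0.103). POR-null control array 1 stood far above the other arrays of its group. Without it the control-diet difference was 0.77 (adjusted p = 0.144) and the averaged difference 1.40, which still passed (adjusted p = 2.66e-05).

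Cyp2c54, an oxidase of arachidonic and linoleic acid, had levels of 11.34, 11.57 and 11.51 in POR-null quercetin and 11.69, 11.06 and 10.495 in POR-null control. Its wild-type levels were 10.08, 10.64 and 10.59 with quercetin and 10.05, 10.39 and 10.75 on the control diet. On the quercetin diet the groups did not overlap, and on the control diet POR-null array 3 lay within the wild-type range. The averaged difference was 0.86 ± 0.17 (SE, 6 arrays against 6; 1.82-fold, interval 1.41 to 2.34; adjusted p = 0.0072). On the quercetin diet it was 1.04 ± 0.24 (2.05-fold, adjusted p = 0.0371) and on the control diet 0.69 ± 0.24, which did not pass (adjusted p = 0.181).

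Cyp2c50, the neighbour of Cyp2c54 with like substrates, had levels of 11.84, 11.74 and 11.84 in POR-null quercetin and 12.33, 11.52 and 11.41 in POR-null control. In wild type it had 10.94, 11.28 and 11.03 with quercetin and 10.47, 11.43 and 11.19 on the control diet. Of the 6 POR-null arrays 5 lay above every wild-type array, and the exception was POR-null control array 3. The averaged difference was 0.72 ± 0.16 (SE, 6 arrays against 6; 1.65-fold, interval 1.30 to 2.10; adjusted p = 0.015). The differences on the quercetin diet and on the control diet were alike in size, 0.73 ± 0.23 and 0.72 ± 0.23, and neither passed by itself (adjusted p = 0.12 and 0.147). With a robust variance prior the averaged call was lost (adjusted p = 0.0522).

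Cyp2c37, which in mice makes a hydroxylated product of arachidonic acid, had levels of 10.998, 10.42 and 11.03 in POR-null quercetin and 11.26, 10.92 and 10.57 in POR-null control. Its wild-type levels were 10.24, 10.63 and 10.18 with quercetin and 9.26, 10.33 and 10.13 on the control diet. On the control diet the groups did not overlap, and with quercetin POR-null array 2 lay below wild-type array 2. The averaged difference was 0.74 ± 0.18 (SE, 6 arrays against 6; 1.67-fold, interval 1.29 to 2.17; adjusted p = 0.0198). The control-diet difference was 1.01 ± 0.25 and the quercetin-diet difference 0.47 ± 0.25, neither past the threshold (adjusted p = 0.0674 and 0.361). The averaged call was lost without POR-null control array 1 (adjusted p = 0.0549) and without POR-null quercetin array 1 (adjusted p = 0.0532). It was also lost with a robust variance prior (adjusted p = 0.0653).

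Cyp2c29, the arachidonic acid epoxygenase for which induction by phenobarbital is best known, spanned only 0.89 log2 units over the 12 arrays. Its levels were 12.19, 12.40 and 12.41 in POR-null quercetin and 12.56, 12.32 and 12.24 in POR-null control, against 12.15, 11.94 and 12.13 in wild-type quercetin and 12.37, 11.66 and 11.80 in wild-type control. With quercetin the groups did not overlap, and on the control diet wild-type array 1 lay within the POR-null range. The averaged difference of 0.34 ± 0.11 (1.27-fold, interval 1.085 to 1.48) did not pass (adjusted p = 0.0627). Without wild-type control array 1 it was 0.45 and passed (adjusted p = 0.00303), as did the control-diet difference, at 0.64 (adjusted p = 0.0122).

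Cyp2c38, an arachidonic acid epoxygenase next to Cyp2c29 among the measured members, varied widely inside groups. It had levels of 9.19, 8.73 and 9.44 in POR-null quercetin and 9.155, 9.16 and 7.69 in POR-null control, against 8.82, 7.94 and 8.83 in wild-type quercetin and 8.86, 8.36 and 7.34 in wild-type control. Each group with quercetin or without it overlapped its wild-type counterpart. The averaged difference was 0.53 ± 0.28 (interval -0.08 to 1.14; adjusted p = 0.282), and array 3 was the lowest on the control diet in both genotypes.

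Cyp2c70, the bile acid hydroxylase, had levels of 10.85, 10.73 and 10.345 in POR-null quercetin and 10.32, 10.345 and 10.98 in POR-null control. In wild type it had 10.62, 11.43 and 10.69 with quercetin and 11.95, 10.31 and 10.46 on the control diet. The groups overlapped on both diets. The averaged difference was -0.31 ± 0.24 (interval -0.83 to 0.21; adjusted p = 0.472), so a fall to 0.56 of the wild-type level and a rise to 1.15 times it both lie within the interval. On the control diet the sign depended on wild-type array 1: the difference was -0.35 with it and 0.17 without it.

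**Figure D2:**
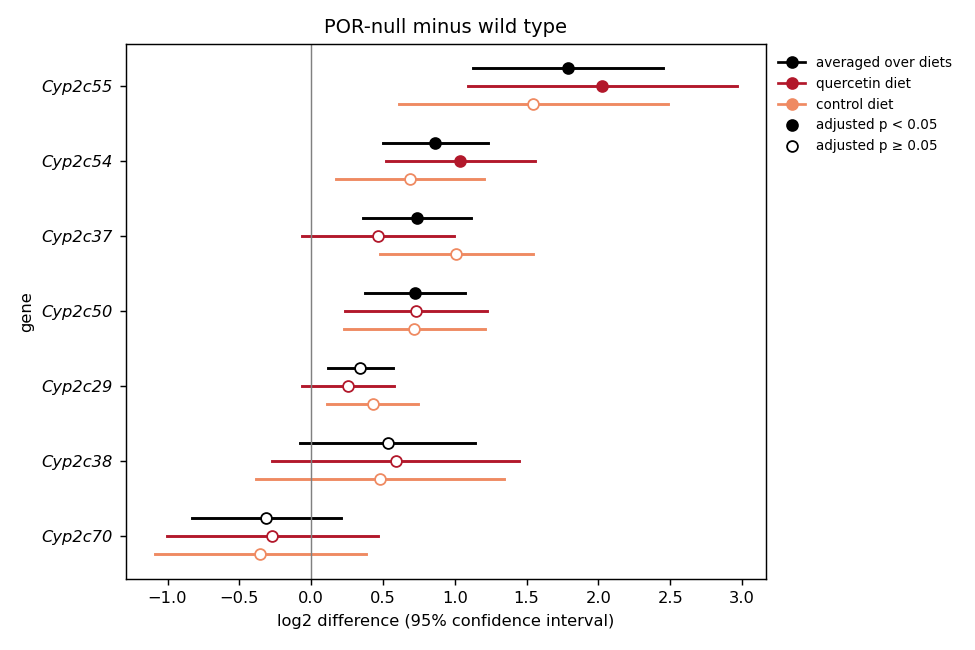
Log2 difference of POR-null minus wild type (horizontal axis) for each Cyp2c gene (vertical axis), averaged over diets, on the quercetin diet and on the control diet, with 95% confidence intervals from limma. Filled points passed at an adjusted p of 0.05: 4 genes for the average, Cyp2c55 and Cyp2c54 on the quercetin diet, and none on the control diet.

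Counted by diet, 2 of 7 members rose and 0 fell on the quercetin diet, where 2.33% of all probe sets were called (1.75% as higher, 0.579% as lower). On the control diet 0 of 7 passed, where 1.16% of all probe sets were called (0.822% as higher, 0.336% as lower). There 5 members, all higher in POR-null, had an unadjusted p under 0.05 by limma. So did 3577 of all 22626 probe sets, 1781 of them as higher. The 2 genotype comparisons share no arrays. Members whose POR-null arrays all lay above all wild-type arrays numbered 4 on the quercetin diet (Cyp2c29, Cyp2c50, Cyp2c54 and Cyp2c55), against 11.9% of all probe sets. On the control diet there were 2 (Cyp2c37 and Cyp2c55), against 8.04% of all probe sets. No member lay wholly below wild type on either diet, where 13.0% of probe sets did with quercetin and 9.24% without it. The calls of Cyp2c54 and Cyp2c55 on the quercetin diet were each lost when any 1 of its 6 arrays was left out, with adjusted p of up to 0.148 for Cyp2c54 and 0.104 for Cyp2c55.

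In order of the group means, POR-null groups took the upper places for 6 of the 7 genes. For Cyp2c50 the order was POR-null quercetin (11.81 ± 0.05), POR-null control (11.75 ± 0.50), wild-type quercetin (11.08 ± 0.18) and wild-type control (11.03 ± 0.50; SD, n = 3 each). Among these steps only the one between POR-null control and wild-type quercetin, 0.67, was larger than the larger SD of the groups beside it. For Cyp2c54, Cyp2c55, Cyp2c37 and Cyp2c29 too, the step between the lower POR-null group and the higher wild-type group was the single one beyond the larger SD. It lay between POR-null control and wild-type quercetin for Cyp2c54, between POR-null control and wild-type control for Cyp2c55, and between POR-null quercetin and wild-type quercetin for Cyp2c37 and Cyp2c29. For Cyp2c38 and Cyp2c70 no neighbouring group means differed by more than the larger SD.

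Quercetin against the control diet moved no member past the threshold in either genotype. In POR-null liver the 7 log2 differences ran from -0.10 (Cyp2c37) to 0.45 (Cyp2c38), and in wild-type liver from -0.06 (Cyp2c55) to 0.44 (Cyp2c37). Of 7 members 0 passed in each, as did 0 of 22626 probe sets (0 percent called); by limma 1581 of these had an unadjusted p under 0.05 in POR-null and 1942 in wild type. No member reached an unadjusted p under 0.05 in either genotype. The groups of every member overlapped, while 6.62% of all probe sets lay wholly higher with quercetin and 7.52% wholly lower in POR-null, and 5.67% and 6.09% in wild type. Over both genotypes, where again no member separated, these shares were 0.102% and 0.137%.

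The intervals set how large a diet response, as the mean over both genotypes, these arrays would leave room for. For Cyp2c29, averaged over genotypes, quercetin over control diet was 1.03-fold with an interval of 0.88 to 1.21. For Cyp2c50 it was 1.04-fold (0.81 to 1.32), for Cyp2c70 1.04-fold (0.72 to 1.48) and for Cyp2c37 1.13-fold (0.87 to 1.46). The widest were Cyp2c55 at 1.13-fold (0.72 to 1.79) and Cyp2c38 at 1.32-fold (0.86 to 2.01). Cyp2c54 stood at 1.16-fold (0.901 to 1.496). Within 1 genotype the intervals were wider for every member and left room for larger responses. For Cyp2c37 in wild type the interval was 0.94 to 1.97. For Cyp2c55 it was 0.50 to 1.84 in wild type and 0.70 to 2.56 in POR-null.

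**Figure D3:**
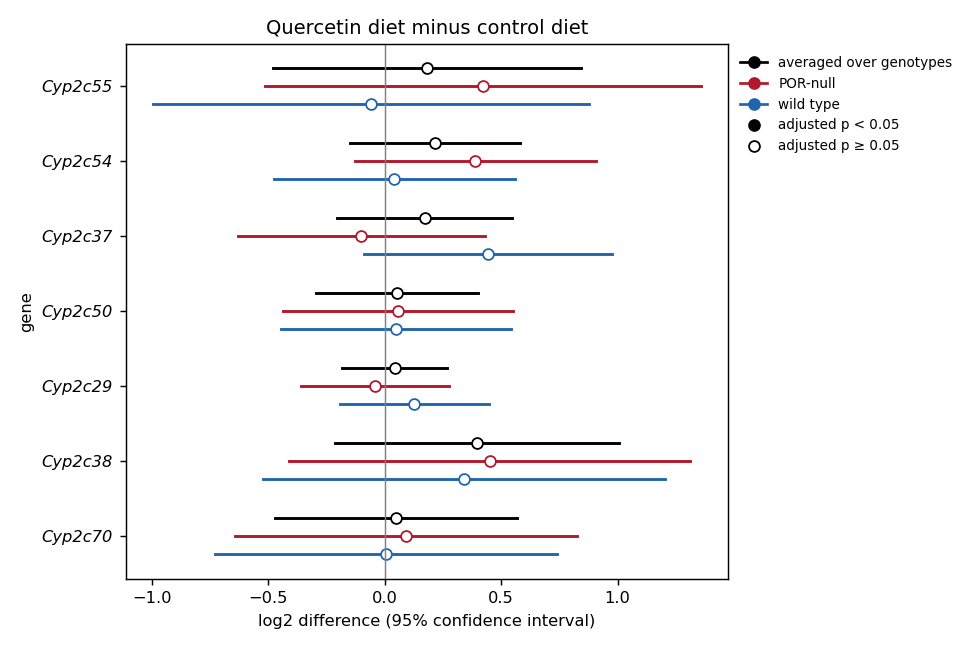
Log2 difference of quercetin diet minus control diet (horizontal axis) for each Cyp2c gene (vertical axis), averaged over genotypes, in POR-null and in wild type, with 95% confidence intervals from limma. Every interval includes 0 and no point passed at an adjusted p of 0.05.

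The interaction term compared the quercetin response of POR-null liver with that of wild-type liver. No member passed (adjusted p = 0.84 to 0.999), as 0 of all probe sets did by limma, of which 1397 had an unadjusted p under 0.05. Cyp2c37 had the most negative value, -0.54 ± 0.35, with responses of -0.10 in POR-null and 0.44 in wild type. Cyp2c55 had the most positive, 0.48 ± 0.62, with responses of 0.42 in POR-null and -0.06 in wild type. For Cyp2c50 the interaction was 0.01 ± 0.33.

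**Figure D4:**
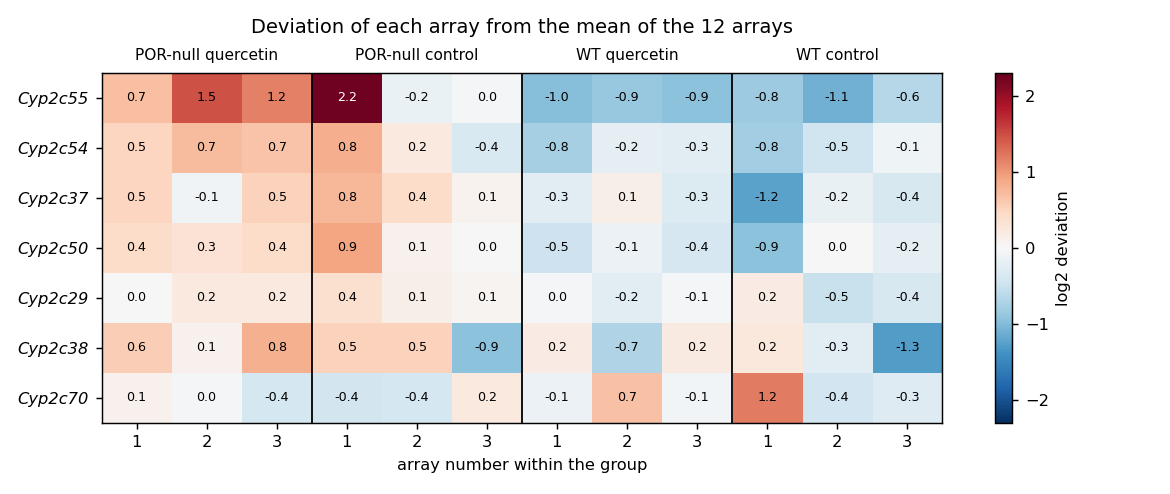
Deviation of each of the 12 arrays (columns, by group) from the gene's mean over all arrays, in log2 units, for the 7 Cyp2c genes (rows). POR-null control array 1 is high for 5 genes at once, and wild-type control array 1 is low for Cyp2c54, Cyp2c37 and Cyp2c50 and high for Cyp2c70.

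Single arrays moved several members together. POR-null control array 1 was the highest of all 12 arrays for Cyp2c29, Cyp2c37, Cyp2c50, Cyp2c54 and Cyp2c55, and its mean deviation over the 7 members was 0.75, against 0.12 and -0.14 in the other POR-null control arrays. Its mean deviation over 26 measured targets of CAR and PXR was 0.55, against 0.23 and 0.04. Wild-type control array 1 was the lowest of 12 for Cyp2c37, Cyp2c50 and Cyp2c54 and the highest for Cyp2c70. That array also had the male-biased list 0.54 above its average, against 0.08 and -0.01 in the other wild-type control arrays. The part of these differences in the Cyp2c results was not tested beyond leaving out each array.

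Of 9 further Cyp2c genes listed, 4 were measured. Cyp2c39, which lies between Cyp2c29 and Cyp2c38 and in mice is known to oxidise retinoic acid, rose by 1.04 ± 0.26 averaged over diets (2.06-fold, adjusted p = 0.0231). Its levels were 10.26, 10.34 and 10.45 in POR-null quercetin and 9.76, 9.79 and 9.71 in POR-null control, against 9.69, 9.20 and 9.66 in wild-type quercetin and 9.81, 7.88 and 7.80 in wild-type control. The low wild-type mean rests on control arrays 2 and 3, and the call was lost without either of them (adjusted p = 0.0592 and 0.0532), without wild-type quercetin array 2 (adjusted p = 0.0635) and with a robust variance prior (adjusted p = 0.0996). Without wild-type control array 1 the averaged difference was 1.37 (adjusted p = 1.95e-06). Cyp2c68 (-0.29 ± 0.15), Cyp2c23 (-0.12 ± 0.15) and Cyp2c65 (-0.15 ± 0.13) did not pass, and the level of Cyp2c65 lay below the median of all values. For quercetin against the control diet, 0 of the 4 measured genes passed. Averaged over genotypes, Cyp2c39 differed by 0.81 ± 0.26 (1.75-fold, interval 1.20 to 2.56). The values of Cyp2c23, Cyp2c65 and Cyp2c68 were 0.08, -0.01 and -0.17. Cyp2c39 differed by 1.02 ± 0.36 in wild type, where the groups overlapped, and by 0.59 ± 0.36 in POR-null. All 3 POR-null quercetin arrays lay above all 3 POR-null control arrays for Cyp2c39.

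Targets of CAR and PXR outside the subfamily shifted in the same averaged comparison: 15 of 26 measured rose and 0 fell, with a median of 0.40. Cyp2b10, the target most used as a sign of CAR activity, rose by 4.36 ± 0.28 and Sult1e1, the estrogen sulfotransferase, by 2.68 ± 0.25. The organic anion transporter Slco1a4 rose by 1.54 ± 0.15, the aldehyde dehydrogenase Aldh1a7 by 1.13 ± 0.11 and Cyp3a11, a main PXR target, by 0.37 ± 0.05. These 5 genes passed in each of 19 alternative fits. The list was compiled with results of these data known and is described by its counts.

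Levels of the receptors themselves did not pass. Nr1i3 (CAR) differed by -0.01 ± 0.08 and Nr1i2 (PXR) by 0.07 ± 0.07 (SE, 6 arrays against 6), and neither passed (adjusted p = 0.955 and 0.62). Of 23 regulators of liver P450 genes measured 0 rose and 5 fell, with a median of -0.14. Nr0b2 (SHP), a repressor of bile acid synthesis, fell by 1.11 on the log2 scale (adjusted p = 0.000666) and the pioneer factor Foxa1 by 0.68 (adjusted p = 0.0151). Rora, an orphan nuclear receptor, fell by 0.42 (adjusted p = 0.0171) and Hnf4a, the HNF4A gene, by 0.31 (adjusted p = 0.0167). Nr5a2 (LRH-1) was the fifth, at -0.26.

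**Figure D5:**
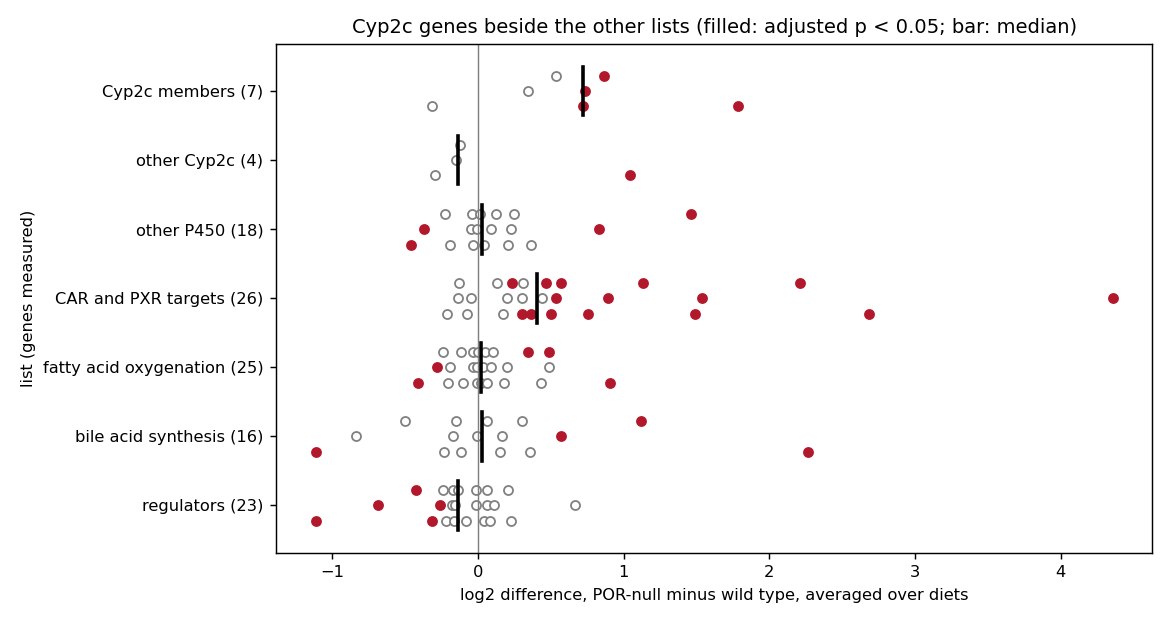
Log2 difference of POR-null minus wild type averaged over diets (horizontal axis) for each measured gene of the Cyp2c subfamily and of 6 further lists (rows, number of genes in parentheses). Filled points passed at an adjusted p of 0.05 and bars mark medians: 0.72 for the Cyp2c members, -0.14 for the 4 other Cyp2c genes, 0.03 for 18 other P450 genes and 0.40 for CAR and PXR targets.

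On a list of further P450 genes, 2 of 18 measured rose, 2 fell and 14 did not pass, with a median of 0.03. As for every list in this averaged comparison, the shares over all probe sets are 4.88% higher and 2.70% lower. Cyp17a1, the steroid lyase, rose by 1.47 ± 0.31 (not called with a robust variance prior) and Cyp26a1, a retinoic acid hydroxylase, by 0.83 ± 0.13. Cyp2d26 fell by 0.46 on the log2 scale and Cyp4v3, a fatty acid hydroxylase, by 0.37. Among 25 genes that release, remodel or oxygenate polyunsaturated fatty acids 3 rose and 2 fell (median 0.02). The elongase Elovl5, which lengthens such acids, rose by 0.91 ± 0.10, the elongase Elovl2 by 0.34 ± 0.10 and Acsl4, which activates arachidonic acid, by 0.49 ± 0.11. Ephx2, the soluble epoxide hydrolase that clears the epoxides Cyp2c enzymes make, fell by 0.28 (adjusted p = 0.0263) and Cyp2j9, an epoxygenase relative, by 0.41, while the epoxygenase Cyp2j5 stood at -0.11 ± 0.09 and did not pass. Ephx2 was called in 13 of 19 alternative fits, Elovl2 in 7 of 19 and Acsl4 in all but the fit with 1 value per gene (0.18, adjusted p = 0.219). That fit averages the probe sets of a gene, so those of Acsl4 beyond the one of highest mean differed less on average. Cyp2j9 was not called without POR-null control array 1 (adjusted p = 0.051). In their mean over the arrays, Cyp2j9 and Acsl4 lay below the median of all values.

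Around Cyp2c70, 3 of 16 bile acid genes rose and 1 fell, with a median of 0.03. Cyp7a1, the rate-limiting enzyme, rose by 2.27 ± 0.19, Cyp8b1, the sterol hydroxylase that makes cholic acid, by 1.12 ± 0.13 and Acox2, a peroxisomal side-chain oxidase, by 0.57 ± 0.10, while the gene that fell was Nr0b2. Cyp2c70 itself did not pass.

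Liver zones and other cell types were read from marker lists in the same comparison. Of 12 pericentral markers 2 rose (Oat and Rhbg) and 0 fell, and of 8 periportal markers 0 rose and 1 fell (Pck1). Of 12 hepatocyte markers 0 rose and 1 fell (Tdo2). Of 14 macrophage and Kupffer cell markers 5 rose and 0 fell, with a median of 0.41. Their summed level, as the mean of log2 values, ranged from 7.76 to 7.98 in POR-null quercetin and 7.65 to 7.98 in POR-null control, against 7.32 to 8.07 in wild-type quercetin and 7.13 to 7.62 in wild-type control; Cd68 and Marco lay below the median of all values. Their part in the Cyp2c results was not tested. Of 12 stellate cell and matrix markers 1 rose, and of 10 endothelial, 6 cholangiocyte and 9 intestinal epithelium markers 0 rose and 0 fell. Below the median of all values lay 6 of these stellate cell and matrix, 4 of the endothelial, 6 of the cholangiocyte and 6 of the intestinal markers. Of 11 exocrine pancreas markers 0 rose and 0 fell, yet all 11 had a difference above 0 averaged over diets (median 0.41). On the quercetin diet, where Cyp2c55 and Cyp2c54 were called, all 11 lay above 0 with a median of 1.00 (0.69 to 1.21), and on the control diet 4 of 11 did (median -0.08). Their summed level ranged from 6.70 to 9.56 in POR-null quercetin and 6.39 to 8.10 in POR-null control, against 6.08 to 7.99 in wild-type quercetin and 6.49 to 8.39 in wild-type control. Reg1 and Pnliprp1 lay below the median of all values. Without POR-null quercetin array 3, the array highest for this list, the quercetin-diet difference was 2.00 for Cyp2c55 and 1.02 for Cyp2c54. Neither passed the threshold (adjusted p = 0.0697 and 0.092), as was so without any other 1 array of that diet. All 4 averaged calls held, with other arrays high for this list still included, such as wild-type control array 2 (1.08 above the list average). The part of the pancreas markers in the Cyp2c results was not tested. Among sex-biased genes, 0 of 14 male-biased rose and 3 fell, and 4 of 11 female-biased rose and 1 fell. Of these 11, 9 lay below the median of all values, among them Cyp2b9, Cyp3a44 and Abcd2, which rose, and Prom1, which fell. Cyp2b9 and Cyp3a44 are also on the CAR and PXR list, and the remaining one that rose, Cyp17a1, is on the list of further P450 genes. In whole tissue, fewer cells of a type and less RNA per cell cannot be told apart.

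The genes whose levels followed each member most closely over the 12 arrays were sought among 7395 other genes above the median level. For Cyp2c55 they were 4931406C07Rik, Gstm3 and Aqp8 (Pearson r = 0.971, 0.963 and 0.961), and for Cyp2c54 Dclre1a, Ces2a and Idh2 (0.953, 0.953 and 0.949). For Cyp2c50 they were Usp18, Smco4 and Mrpl54 (0.953, 0.947 and 0.933), and for Cyp2c37 Mrpl54, G6pc and Uqcrfs1 (0.887, 0.876 and 0.869). Cyp2c29 ran with Slc25a5, Stard3nl and Hibadh (0.945, 0.925 and 0.925), and Cyp2c38 with Vps35, Hectd3 and Ganab (0.927, 0.922 and 0.915). Cyp2c70 had the lowest values, with Smc6, Tbcd and Crtc2 (0.855, 0.820 and 0.804). Gstm3 and Ces2a are on the CAR and PXR list, and Mrpl54 was shared by Cyp2c50 and Cyp2c37. These arrays share their genotype groups, and each r is the highest of many, so they are descriptions only.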

How the data were processed

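Total RNA from 12 pools of liver was measured on Affymetrix 430A arrays. The range of the deposited values, 2.57 to 14.2 with array medians of 5.93 to 5.99, is that of log2 expression. MAS5 and RMA both stand in the submitters' processing notes, and which of them the authors used is not given in the sources used here. No array was a copy of another (highest correlation of a pair 0.993), and the labels name no batch. The 64 AFFX control probe sets were left out, and 22626 were tested with no filter. Probe sets were named from the platform annotation: 20380 carried 1 symbol, 691 several and 1555 none. Of the first, 20351 matched RefSeq (GRCm38.p6) by gene ID, and 0 symbols changed.

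Differences were tested, two-sided, with limma 3.58.1 in R 4.3.3 (1 mean per group over 12 arrays, eBayes with trend) and p-values were adjusted by Benjamini-Hochberg over all probe sets. Of several probe sets of a list gene, the one of highest mean was used. The members and lists were chosen with earlier results of these data known. All members are named, with up to 4 genes per list of lowest p among those past the threshold in a genotype comparison and 10 fixed genes; other names were added after their values were seen. P-values measure the spread between pools. The procedure was run on simulated data with independent noise for each probe set, so deviations shared across an array were not simulated. Promoters were aligned with Biopython 1.88, and figures drawn with matplotlib 3.10.9.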

Additional observations from a re-analysis of the deposited data

How the results depend on the processing

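Each comparison was refitted with the dimmest 40% of probe sets left out, with quantile normalization, without the variance trend, with a robust prior, with array weights, with 1 value per gene, with a replicate block, with only the groups compared (comparisons within 1 diet or genotype) and without each array in turn. The same fits for list genes were added after seeing the data. Averaged over diets, the calls of Cyp2c55 and Cyp2c54 held in all 19 fits. The count of 4 members was 2 with the robust prior (adjusted p = 0.0522 for Cyp2c50 and 0.0653 for Cyp2c37). Cyp2c29 was called with array weights (0.38, adjusted p = 0.022). On the quercetin diet the count of 2 was 1 with quantile normalization, 0 with the robust prior, 1 with the replicate block (adjusted p = 0.0548 for Cyp2c54) and 0 without any 1 array. With only the groups compared Cyp2c50 was called there (adjusted p = 0.00182). On the control diet leaving out arrays gave 0 to 3, the 3 being Cyp2c37, Cyp2c54 and Cyp2c55 without POR-null control array 3 (adjusted p = 0.0324, 0.0291 and 0.0414). Cyp2c70 ran there between -0.65 and 0.17, and Nr1i3, averaged over diets, between -0.059 and 0.060. The causes were not tested.

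Of all probe sets, the 1714 called over both diets were 1061 with 1 value per gene, where fewer features are tested, and 991 to 2128 without 1 array. The 262 on the control diet were 30 with only the groups compared, 110 with 1 value per gene and 35 to 756 without 1 array. The 527 on the quercetin diet were 1052 with array weights, 950 with only the groups compared and 127 to 389 without 1 array. For quercetin in wild type the 0 became 1 without the dimmest probe sets, 1 without the trend, 2 with the replicate block and 0 to 151 without 1 array (151 without wild-type control array 1). Leaving out arrays gave 0 to 4 in POR-null, 0 to 24 over both genotypes and 0 to 1 for the interaction.

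Small diet differences of the members changed sign and none was called. Without 1 array, the wild-type values ran from -0.013 to 0.34 (Cyp2c29), -0.082 to 0.68 (Cyp2c38), -0.23 to 0.25 (Cyp2c50), -0.13 to 0.22 (Cyp2c54), -0.18 to 0.049 (Cyp2c55) and -0.29 to 0.53 (Cyp2c70). Those in POR-null ran from -0.11 to 0.051 (Cyp2c29), -0.27 to 0.096 (Cyp2c37), -0.041 to 0.70 (Cyp2c38), -0.11 to 0.34 (Cyp2c50) and -0.021 to 0.31 (Cyp2c70). Over both genotypes they ran from -0.027 to 0.15 (Cyp2c29), -0.087 to 0.20 (Cyp2c50), -0.028 to 0.57 (Cyp2c55) and -0.0995 to 0.31 (Cyp2c70). The interaction ran from -0.38 to 0.53 (Cyp2c38), -0.19 to 0.30 (Cyp2c50) and -0.44 to 0.38 (Cyp2c70). With quantile normalization Cyp2c50 stood at -0.010 and Cyp2c70 at -0.041 in wild type, and Cyp2c70 at -0.0070 over both genotypes. With array weights the interaction of Cyp2c70 was -0.027. Deviations from group means correlated at -0.18 to 0.24 in same-numbered pairs of arrays, above 0.1 in 5 of 18. In other pairs they correlated at -0.22 to 0.22, above 0.1 in 6 of 36. These overlapping ranges do not settle whether equal pool numbers pair the arrays, and a shared batch was not tested. With 3 pools a group, the number of arrays limits the precision.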
